A study of Mus musculus with 12 samples.

Results

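The collagen chain genes were taken as every gene whose array annotation symbol reads Col, a number, a and a number, such as Col1a1. On this mouse expression array 42 genes with 82 probe sets met that rule, out of 45037 probe sets that are not controls. A probe set is a group of short probes that together measure a transcript. Of these, 27 genes with 43 probe sets were called present by the authors in at least 1 of 4 groups and were tested, against 24346 probe sets tested in all. The groups came from Neo/Null and Neo/Wt mouse embryos at E10.5, each genotype with a nasal and a maxillary prominence group, with 3 pools of microdissected tissue in each group and 12 arrays in total. Tfap2a encodes the transcription factor AP-2α. Neo/Null embryos carried a Tfap2a allele weakened by a neomycin cassette over a null allele and develop cleft lip and palate, and the Neo/Wt controls carried the same weakened allele over a wild-type allele, so no group was free of it. The labels call the alleles aflox/null and aflox/wt, and the name Neo/Wt is that of the study. The mice were on an outbred background, each array pooled several embryos, and the sources used here do not say if pools held embryos whose neural tube was open. Because whole prominences were measured, fewer cells of a type and less RNA per cell cannot be told apart in any value below.

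Collagens are extracellular proteins in which chains wind into a triple helix. Some collagens are built from copies of a single gene's chain and others from the products of several genes. Fibrillar collagens form the banded fibrils of connective tissue, fibril-associated collagens sit on their surface, collagen IV forms the mesh of basement membranes, collagen VI forms beaded filaments, and some collagens stay in the cell membrane. In the embryonic face at this stage the prominences are buds of loose mesenchyme, mostly from the neural crest, covered by ectoderm, and neither cartilage nor bone has formed.

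The tissue and allele checks were as follows. All 5 tested genes of a list of nasal labels were higher in the nasal prominence of Neo/Wt embryos, with a median log2 difference of 1.48, and 5 of 6 maxillary labels were higher in the maxillary prominence, where Dlx5 was the exception. Tfap2a gave log2 signals between 9.06 and 9.22 on all 12 arrays, and whether its probe set covers the part changed by either allele is not given in the sources used here. Array medians lay between 5.13 and 5.19. The Neo/Wt maxillary replicate 3 stood apart in neuronal genes, whose mean log2 signal ranged from 5.46 to 7.99 in that group and from 7.04 to 8.47 over the other groups. Without that array 19 of the 20 collagen calls in Neo/Wt described below remained.

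The nasal and maxillary prominences differed in many collagen genes. In Neo/Wt embryos Col14a1, Col1a2 and Col12a1 were higher in the nasal prominence, while Col23a1, Col9a1, Col5a1, Col5a2, Col6a1, Col6a2, Col6a3, Col25a1, Col15a1 and Col18a1 were higher in the maxillary prominence. The differences ran from 1.93 for Col14a1, higher in nasal tissue, to -1.18 for a probe set of Col23a1, on the log2 scale and as nasal minus maxillary. Differences were tested with limma on the deposited log2 values, and p-values carried a Benjamini-Hochberg adjustment over all 24346 probe sets, with a threshold of 0.05. Of the 43 collagen probe sets, 5 were higher in nasal tissue, or 11.6%, beside 4.01% of all probe sets tested. A further 15 were higher in maxillary tissue, or 34.9%, beside 4.13% of all. The median difference of the 43 was -0.19, against -0.021 over all probe sets.

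A probe set called present only where it is bright could enter the test through its bright group, so the count was repeated on the 30 collagen probe sets called present in all 4 groups. Of these 2 were higher in nasal and 12 in maxillary tissue, or 46.7%, beside 7.49% of the 20153 probe sets called present in all groups. Both of the 2 measured Col1a2, so Col14a1 and Col12a1 dropped out of the nasal genes, and Col6a1, Col6a2 and Col15a1 dropped out of the maxillary genes. Col14a1 and Col12a1 were called present in nasal groups only and Col6a1 and Col6a2 in maxillary groups only, while Col15a1 missed the call only in Neo/Wt nasal tissue. With no filter, where every probe set but the controls was tested, Col14a1, Col12a1, Col6a1 and Col15a1 passed in Neo/Wt and Col6a2 did not (adjusted p 0.0562). The 15 genes with no probe set called present were Col4a3, Col4a4, Col5a3, Col6a4, Col6a5, Col8a1, Col9a2, Col10a1, Col11a2, Col17a1, Col19a1, Col20a1, Col22a1, Col24a1 and Col27a1. Their 30 probe sets ranged from 2.49 to 7.22 on the log2 scale over the arrays. Another 9 probe sets, from genes that had a tested probe set as well, were not called present either.

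**Figure D1:**
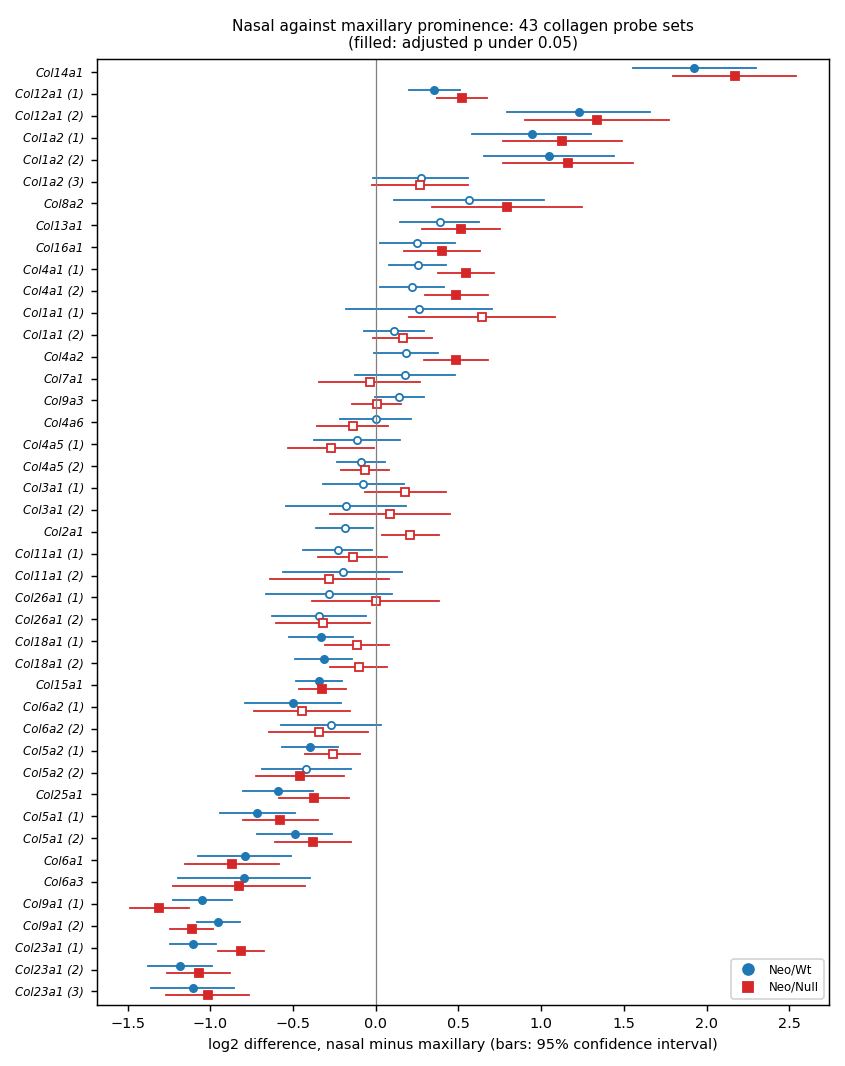
Log2 difference, nasal minus maxillary (horizontal axis), for the 43 tested collagen probe sets in Neo/Wt (blue circles) and Neo/Null (red squares), with 95% confidence intervals. Filled symbols passed the adjusted threshold. Numbers in brackets count the probe sets of a gene from the brightest down. Col14a1 lies at the top near 2 and Col23a1 at the bottom near -1.1.

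In Neo/Null embryos 23 of the 43 probe sets passed the threshold between the prominences. The 11 higher in nasal tissue, or 25.6% beside 5.81% of all probe sets, belonged to Col14a1, Col1a2, Col12a1, Col4a1, Col4a2, Col13a1, Col16a1 and Col8a2. The 12 higher in maxillary tissue, or 27.9% beside 3.99% of all, belonged to Col9a1, Col23a1, Col6a1, Col6a3, Col5a1, Col5a2, Col25a1 and Col15a1. Among the 30 probe sets called present in all groups, 7 were higher in nasal and 10 in maxillary tissue, or 56.7% beside 8.95%. Col14a1, Col12a1 and Col16a1 dropped out of the nasal genes there, and Col6a1 and Col15a1 out of the maxillary genes, and with no filter all of these but Col16a1 passed (adjusted p 0.0501 for Col16a1). The median difference was -0.10, against -0.0021 over all probe sets. The Neo/Wt and Neo/Null comparisons use different arrays, although the fit pools their spread. In both, 16 probe sets of 10 genes passed in the same direction, which were 80% of the Neo/Wt calls and 69.6% of the Neo/Null calls. Of the 43 probe sets 38 differed in the same direction in both genotypes, and the others belonged to Col7a1, Col4a6, Col3a1 and Col2a1. The same shares were not counted over all probe sets tested, so this agreement was not shown to be particular to collagens. A call in only a single genotype was not shown to differ between them, as 0 probe sets passed in the test of the difference between genotypes given below.

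Promoter sequences are shown for Col1a2, Col5a1 and Col9a1, which were among the genes that differed most in both genotypes and for which the RefSeq table used here held bases before the gene. The table, on build GRCm38.p6, held 36 windows for 33 of the 42 genes, of which 20 were tested. Each window is the 250 bases before an annotated start of transcription, and genes can have several. Against the bounds of the gene on the same build, 13 windows lay outside the gene, 8 lay inside it, before a downstream start, and 15 straddled its first base, with 19 to 241 bases inside. The window of Col23a1 had 241 bases inside the gene and is not shown, and those of Col5a1 and of the upstream start of Col9a1 are cut at the gene's first base, by 44 and 21 bases. Capitals mark matches to GCCNNNGGC (a motif bound by AP-2 proteins, which reads alike on both strands), CCAAT and GGGCGG (the GC box), each searched on both strands. The stretches are chr6:4505368-4505617 for Col1a2, chr2:27886175-27886380 for Col5a1, and chr1:24177360-24177588 and chr1:24194953-24195202 for the upstream and downstream starts of Col9a1, all on the plus strand, and the last lies inside the gene.
Col1a2: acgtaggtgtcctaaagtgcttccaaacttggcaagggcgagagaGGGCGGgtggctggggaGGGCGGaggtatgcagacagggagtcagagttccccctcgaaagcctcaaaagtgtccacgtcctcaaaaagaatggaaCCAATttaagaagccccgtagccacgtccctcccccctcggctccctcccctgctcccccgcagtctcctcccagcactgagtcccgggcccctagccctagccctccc
Col5a1: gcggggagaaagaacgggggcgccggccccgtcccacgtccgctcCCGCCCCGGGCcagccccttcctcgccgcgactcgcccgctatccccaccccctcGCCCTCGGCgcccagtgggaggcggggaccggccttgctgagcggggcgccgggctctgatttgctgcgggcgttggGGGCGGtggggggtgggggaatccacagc
Col9a1 upstream start: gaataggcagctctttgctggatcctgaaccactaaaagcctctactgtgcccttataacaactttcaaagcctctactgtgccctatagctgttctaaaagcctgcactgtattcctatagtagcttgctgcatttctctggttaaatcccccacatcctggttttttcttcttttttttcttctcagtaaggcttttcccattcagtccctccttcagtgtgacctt
Col9a1 downstream start: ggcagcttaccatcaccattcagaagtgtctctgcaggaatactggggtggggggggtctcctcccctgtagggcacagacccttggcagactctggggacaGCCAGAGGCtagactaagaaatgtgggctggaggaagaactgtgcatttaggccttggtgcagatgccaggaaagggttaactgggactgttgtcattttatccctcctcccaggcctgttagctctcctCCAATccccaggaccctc
Counted back from the last base shown, Col1a2 held a CCAAT match at 109 bases and GC box matches at 205 and 188 bases. Col5a1 held GCCNNNGGC at 159 and 106 bases, the farther of which overlaps a GC box match, and another GC box match at 29 bases. Col9a1 had no match in the stretch before its upstream start, and GCCNNNGGC and CCAAT at 148 and 18 bases before its downstream start. Over the 32851 windows of the table, 13.7% held GCCNNNGGC, 33.8% held CCAAT and 32.7% held a GC box. Of the 23 windows of the 20 tested collagen genes, 5, 10 and 14 held them in the same order, which belonged to 5, 10 and 13 genes. GCCNNNGGC was present for Col4a1, Col4a2, Col5a1, Col9a1 and Col16a1, of which Col5a1 and Col9a1 were higher in maxillary tissue and Col4a1, Col4a2 and Col16a1 higher in the nasal tissue of Neo/Null embryos. A match is a description of the letters in these windows and was not tested as a binding site.

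Among the fibrillar collagens, 7 of 11 genes were tested, and Col1a2 differed most. Col1a2 encodes the α2 chain of collagen I, the main fibril of most connective tissue. Its brightest probe set (1450857_a_at) gave log2 signals of 10.36, 10.36 and 10.29 in the Neo/Wt nasal replicates 1 to 3 and 9.55, 9.61 and 9.02 in the Neo/Wt maxillary replicates. In Neo/Null it gave 10.07, 10.51 and 10.35 in nasal tissue and 9.28, 9.36 and 8.92 in maxillary tissue. Every nasal array lay above every maxillary array in both genotypes. The difference was 0.94 ± 0.16 (SE, n = 3 pools in each group) in Neo/Wt, a 1.92-fold difference with an adjusted p of 0.00399, and 1.13 ± 0.16 in Neo/Null, a 2.18-fold difference with an adjusted p of 0.000981. A second probe set of Col1a2 differed by 1.05 and 1.16, and another, dim one by 0.27 in each genotype without passing the threshold.

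Col1a1 encodes the partner chain of collagen I and did not pass the threshold. Its brightest probe set gave 6.42, 6.53 and 6.66 in Neo/Wt nasal tissue and 6.41, 6.64 and 5.77 in Neo/Wt maxillary tissue. The groups overlapped, since maxillary replicate 2 was near the top and replicate 3 was the lowest of all. The difference was 0.26 (95% confidence interval -0.18 to 0.70) with an adjusted p of 0.504, and in Neo/Null it was 0.64 (0.20 to 1.09) with an adjusted p of 0.0699. In Neo/Null the nasal values of 6.52, 6.90 and 6.73 all lay above the maxillary values of 6.07, 6.36 and 5.80.

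Collagen V, which co-assembles with collagen I and limits fibril width, ran the other way. Col5a1 (brightest probe set 1416740_at) gave 7.02, 7.05 and 7.01 in Neo/Wt nasal and 7.72, 7.89 and 7.62 in Neo/Wt maxillary tissue. In Neo/Null it gave 7.14, 7.36 and 6.91 in nasal and 7.64, 7.79 and 7.72 in maxillary tissue. The prominences did not overlap in either genotype, and the Neo/Null nasal pools were spread more widely than the others. Col5a1 was 1.64-fold higher in maxillary tissue in Neo/Wt (log2 difference -0.72 ± 0.10, adjusted p 0.00119) and 1.49-fold in Neo/Null (-0.58 ± 0.10, adjusted p 0.00403). A dimmer Col5a1 probe set passed in both genotypes as well, at -0.49 and -0.38, and lost the call when either Neo/Wt maxillary replicate 2 (adjusted p 0.0520) or Neo/Wt nasal replicate 3 (0.0517) was left out of the Neo/Wt comparison. In the Neo/Null comparison it lost the call without any of 9 arrays, with adjusted p-values up to 0.126. Col5a2, the partner chain, differed by -0.40 and -0.42 on 2 probe sets in Neo/Wt, with adjusted p-values of 0.00762 and 0.0585, and by -0.26 and -0.46 in Neo/Null, with adjusted p-values of 0.0549 and 0.0355. The Neo/Null call of the dimmer Col5a2 probe set was lost without Neo/Null maxillary replicate 1 or 3 or nasal replicate 2 or 3 (adjusted p 0.0541 to 0.131), and with nasal and maxillary pools of the same number paired (adjusted p 0.0675).

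Col3a1, Col2a1 and Col11a1 were not called in either genotype. Col3a1, the chain of collagen III in soft connective tissue, differed by -0.074 and -0.18 in Neo/Wt and by 0.18 and 0.088 in Neo/Null on its 2 probe sets. Its neighbour on the chromosome is Col5a2, which was called. Col2a1, the chain of the main cartilage collagen, differed by -0.19 in Neo/Wt and 0.21 in Neo/Null. Col11a1, a minor fibrillar chain found with collagen II in cartilage, differed by -0.23 and -0.20 in Neo/Wt and by -0.14 and -0.28 in Neo/Null.

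**Figure D2:**
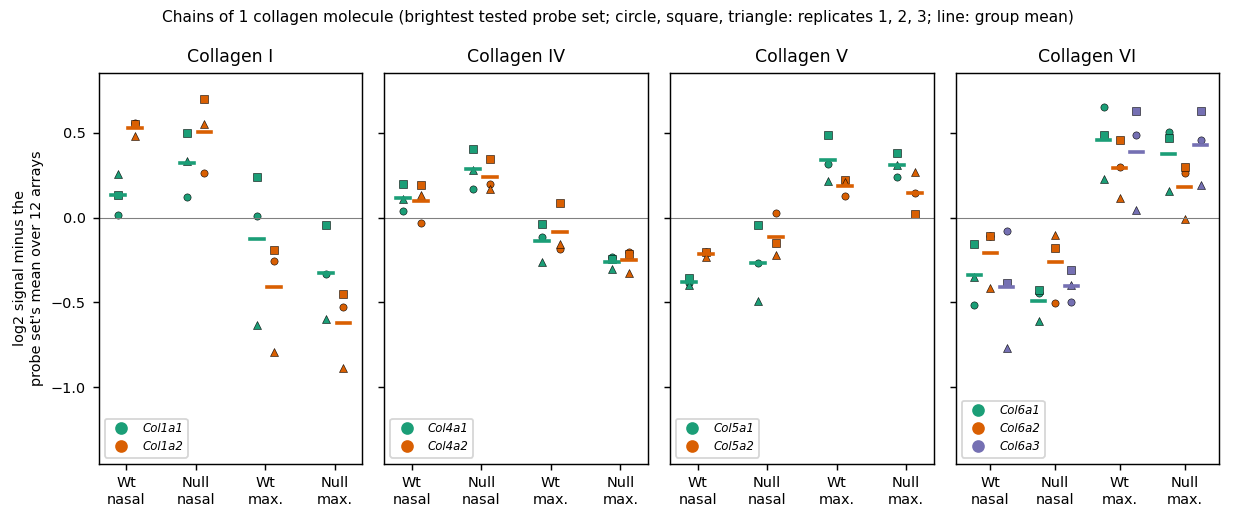
Log2 signal minus the mean of the probe set over the 12 arrays (vertical axis) in the 4 groups (horizontal axis), for chains that assemble into the same collagen, with the brightest tested probe set of each gene. Symbols are arrays (circle, square and triangle for replicates 1, 2 and 3) and lines are group means. Group means of the chains of collagens V and VI lie higher in maxillary tissue and those of collagens I and IV higher in nasal tissue, although single arrays of Col1a1 and Col4a2 overlap in Neo/Wt and those of Col5a2 in Neo/Null.

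Of the fibril-associated collagens, 5 of 9 genes were tested. Col14a1, which binds fibril surfaces and is known from tendon and dermis, showed the largest difference of any collagen probe set in either genotype. Its tested probe set (1427168_a_at) gave 5.05, 5.30 and 5.93 in Neo/Wt nasal and 3.50, 3.63 and 3.37 in Neo/Wt maxillary tissue, where the authors' call was not present. In Neo/Null it gave 5.76, 5.61 and 5.73 in nasal and 3.52, 3.52 and 3.55 in maxillary tissue. The lowest nasal array lay more than 1 log2 unit above the highest maxillary array. The difference was 1.93 ± 0.17 in Neo/Wt (3.80-fold, adjusted p 2.80e-05) and 2.17 ± 0.17 in Neo/Null (4.50-fold, adjusted p 8.91e-06). Since the maxillary signal was not called present, the fold is measured against a signal that may be mostly background.

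Col12a1, a close relative of Col14a1, was also higher in nasal tissue. Its brightest probe set (1427391_a_at) gave 6.99, 6.76 and 6.86 against 6.53, 6.42 and 6.59 in Neo/Wt, nasal before maxillary, and 6.95, 7.00 and 6.99 against 6.42, 6.52 and 6.42 in Neo/Null. The groups were apart in both genotypes. This probe set was called present only in Neo/Null nasal tissue, and so entered the test through a group where it was bright. The differences were 0.35 ± 0.07 (adjusted p 0.00805) and 0.52 ± 0.07 (adjusted p 0.000519). A dimmer Col12a1 probe set, called present in the nasal groups only, differed by 1.23 and 1.34, so the size of the difference depended on the probe set.

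Col9a1 encodes a chain of collagen IX, which coats collagen II fibrils in cartilage. It was higher in maxillary tissue in both genotypes. Its brightest probe set (1428571_at) gave 9.12, 9.24 and 9.00 in Neo/Wt nasal and 10.14, 10.17 and 10.20 in Neo/Wt maxillary tissue. In Neo/Null it gave 8.93, 9.12 and 8.88 in nasal and 10.19, 10.30 and 10.37 in maxillary tissue. No nasal array came near a maxillary one. The signal was 2.07-fold higher in maxillary tissue in Neo/Wt (-1.05 ± 0.08, adjusted p 1.06e-05) and 2.48-fold in Neo/Null (-1.31 ± 0.08, adjusted p 1.43e-06), and the second probe set differed by -0.95 and -1.11. Of the other chains of collagen IX, Col9a3 differed by 0.14 and 0.0054 at a dim signal near 3. Col9a2 was not called present and so was not tested. Its mean log2 signal was 4.25 in nasal and 4.50 in maxillary tissue of Neo/Wt, and 4.44 and 4.61 in Neo/Null. Col16a1, found with fibrils in skin and cartilage, differed by 0.25 in Neo/Wt (adjusted p 0.184) and 0.40 in Neo/Null (adjusted p 0.0324), and the latter call was lost without any of the 3 Neo/Null maxillary replicates or Neo/Null nasal replicate 3 (adjusted p 0.0728 to 0.0923) and with no filter. It was called present in the nasal groups only.

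Genes linked to the fibrillar and cartilage collagens were counted from lists of known function. Over all 11381 genes tested, 5.28% were higher in nasal and 4.53% in maxillary tissue in Neo/Wt, and 7.94% and 4.31% in Neo/Null. Of 4 chondrogenic transcription factors tested, only Sox8 passed, in both genotypes, and it was 3.96-fold and 3.88-fold higher in nasal tissue. Sox9, the main activator of Col2a1 and Col9a1, differed by 0.0013 in Neo/Wt and 0.25 in Neo/Null (adjusted p 0.0673), and Sox5 and Sox6 by -0.15 and -0.18 in Neo/Wt. Of 2 tested cartilage genes Matn3 was higher in nasal tissue in Neo/Wt, by 0.66, and differed by 0.49 in Neo/Null (adjusted p 0.0611), whereas Hapln1 differed by 0.14 in Neo/Wt (adjusted p 0.592) and was higher in nasal tissue in Neo/Null, by 0.46 (adjusted p 0.0468). Acan, Matn1, Comp and Cnmd were not called present. Of 6 tested proteoglycans and glycoproteins that bind fibrils, 1 was higher in nasal and 1 in maxillary tissue in Neo/Wt, and 1 and 2 in Neo/Null. In Neo/Wt they were Lum, which encodes lumican, at 3.89-fold higher in nasal tissue, and Tgfbi, at 1.75-fold higher in maxillary tissue. Bgn, which encodes biglycan, differed by -0.27 in Neo/Wt and passed in Neo/Null at -0.41 (adjusted p 0.0485).

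The 3 tested genes of collagen VI passed as higher in the maxillary prominence of Neo/Wt embryos, although Col6a1 and Col6a2 were called present in maxillary groups only and so entered the test through a group where they were bright. Collagen VI links cells to the surrounding fibrils, and its molecule needs the products of Col6a1, Col6a2 and Col6a3. Col6a1 (probe set 1448590_at) gave 4.40, 4.76 and 4.57 in Neo/Wt nasal and 5.57, 5.40 and 5.15 in Neo/Wt maxillary tissue, and 4.48, 4.49 and 4.31 against 5.42, 5.39 and 5.07 in Neo/Null. All maxillary arrays lay above all nasal arrays, and replicate 3 was the lowest maxillary array in both genotypes. The differences were -0.79 ± 0.13 (1.73-fold, adjusted p 0.00253) and -0.87 ± 0.13 (1.83-fold, adjusted p 0.00110), and since nasal tissue was not called present in either genotype, the folds are against a signal that may be mostly background. Col6a3 differed by -0.80 ± 0.18 and -0.83 ± 0.18, with adjusted p-values of 0.0199 and 0.0139. Its Neo/Wt call was lost without maxillary replicate 1 or 2 or nasal replicate 2 or 3 of Neo/Wt (adjusted p 0.0578 to 0.0803), and its Neo/Null call without Neo/Null maxillary replicate 2 (0.0598) or nasal replicate 1 (0.0517). Col6a2 differed by -0.50 ± 0.13 in Neo/Wt (adjusted p 0.0405) and -0.44 ± 0.13 in Neo/Null (adjusted p 0.0584, and 0.0463 with pools paired). The Neo/Wt call of Col6a2 was lost without any of 7 arrays, with adjusted p-values up to 0.140, and with no filter. A second Col6a2 probe set, whose suffix marks probes that can match other transcripts, differed by -0.27 and -0.35.

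Among the membrane collagens, Col23a1 had the smallest p of any collagen in Neo/Wt. Col23a1 encodes a transmembrane collagen that can be shed from the cell surface. Its brightest probe set (1429209_at) gave 7.40, 7.60 and 7.57 in Neo/Wt nasal and 8.64, 8.66 and 8.57 in Neo/Wt maxillary tissue. In Neo/Null it gave 7.62, 7.59 and 7.59 in nasal and 8.48, 8.33 and 8.43 in maxillary tissue. The 6 maxillary arrays all lay above the 6 nasal arrays. Col23a1 was 2.15-fold higher in maxillary tissue in Neo/Wt (-1.10 ± 0.06, adjusted p 1.14e-06) and 1.76-fold in Neo/Null (-0.81 ± 0.06, adjusted p 8.99e-06). Its other probe sets differed by -1.18 and -1.11 in Neo/Wt and by -1.07 and -1.02 in Neo/Null.

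Col25a1, a membrane collagen needed for motor neurons to reach muscle, was also higher in maxillary tissue. Its tested probe set (1438540_at) gave 4.45, 4.45 and 4.30 in Neo/Wt nasal and 5.09, 4.89 and 5.00 in Neo/Wt maxillary tissue, and 4.82, 4.77 and 4.45 against 5.05, 4.99 and 5.12 in Neo/Null. The prominences did not overlap within a genotype, and the gap between them was smaller in Neo/Null. The differences were -0.59 ± 0.10 (1.51-fold, adjusted p 0.00254) and -0.37 ± 0.10 (1.30-fold, adjusted p 0.0301). The Neo/Null call was lost with same-numbered nasal and maxillary pools paired (adjusted p 0.0539), and without Neo/Null nasal replicate 3 or any of the 3 Neo/Null maxillary replicates (0.0565 to 0.107). A brighter Col25a1 probe set (1421427_at) was called present in no group and was not tested. Its mean log2 signal was 5.71 in nasal and 5.67 in maxillary tissue of Neo/Wt, and 5.57 and 5.82 in Neo/Null. The maxillary excess in Neo/Wt therefore rests on the dimmer probe set. Col13a1, known from the neuromuscular junction, differed by 0.39 in Neo/Wt (adjusted p 0.0512) and 0.52 in Neo/Null (adjusted p 0.0107), and the Neo/Wt comparison passed with pools paired (adjusted p 0.0104). Neuronal genes, with 6 tested, had 0 calls between the prominences in either genotype. Their SEs were wide, from 0.12 for Elavl3 to 0.74 for Nefl, so 0 calls does not show that they were equal. In Neo/Wt 4 of the 6 differed toward nasal tissue, with a median of 0.33, against -0.012 over all genes. In Neo/Null 0 of the 6 did, with a median of -0.35 against 0.021. The part of neurons in the collagen differences was not tested.

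**Figure D3:**
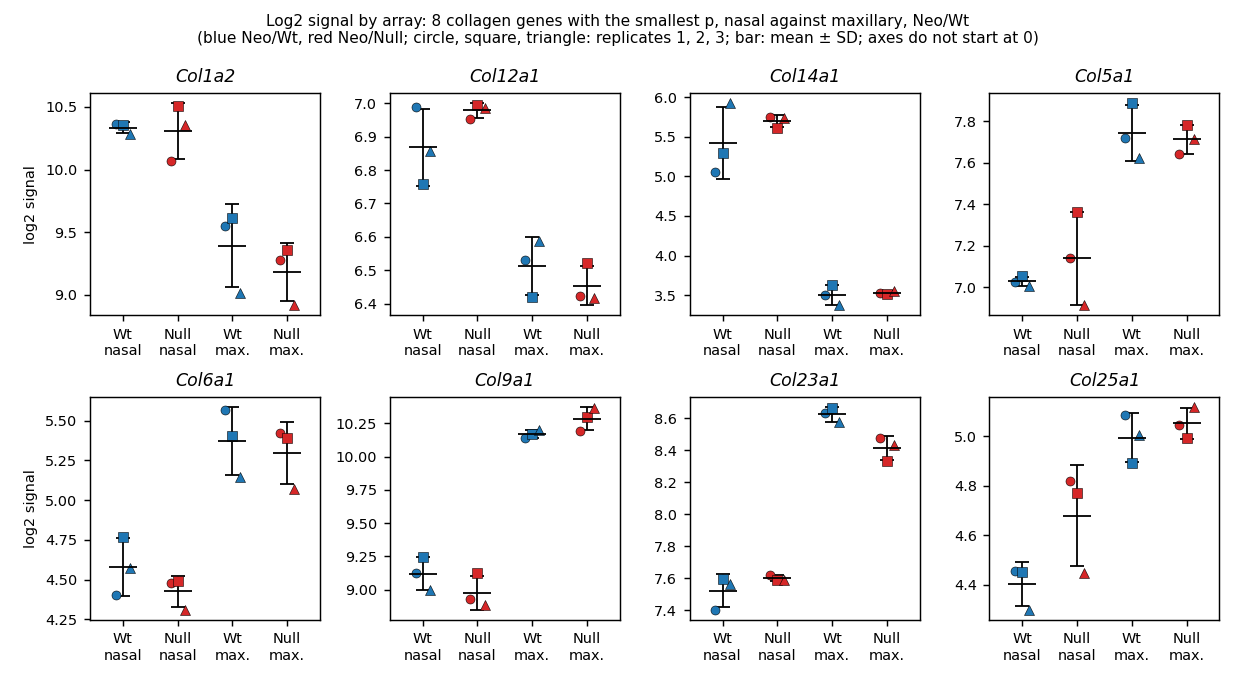
Log2 signal (vertical axis, separate range for each gene) on the 12 arrays for the 8 collagen genes with the smallest p between the prominences in Neo/Wt, with the brightest tested probe set of each. Symbols are arrays, and bars give the mean and SD of 3 pools. Col1a2, Col12a1 and Col14a1 lie higher in nasal tissue and the other 5 higher in maxillary tissue, with no overlap between the prominences of a genotype.

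Of the collagen IV chains, only Col4a1 and Col4a2 were called between the prominences, and in Neo/Null alone. Col4a1 and Col4a2 encode the widely expressed collagen IV, and their starts lie back to back on chromosome 8. The brightest Col4a1 probe set gave 10.44, 10.61 and 10.52 in Neo/Wt nasal and 10.29, 10.37 and 10.15 in Neo/Wt maxillary tissue, and 10.57, 10.81 and 10.69 against 10.18, 10.16 and 10.10 in Neo/Null. The groups were apart in both genotypes and farther apart in Neo/Null. The difference was 0.25 ± 0.08 in Neo/Wt (adjusted p 0.0716) and 0.55 ± 0.08 in Neo/Null (1.46-fold, adjusted p 0.000836). Col4a2 differed by 0.18 ± 0.09 (adjusted p 0.256) and 0.48 ± 0.09 (1.40-fold, adjusted p 0.00460). Col4a5 and Col4a6, which are also neighbours, differed by -0.27 to 0.00061 over their tested probe sets in both genotypes and were not called. Among 11 tested partners of collagen IV, Nid1 and Lamc1 were higher in nasal and Lama4 in maxillary tissue of Neo/Wt embryos, by 0.66, 0.27 and -0.28. In Neo/Null embryos Nid1, Lamc1 and Lama1 were higher in nasal tissue, by 0.47, 0.27 and 0.43.

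Col15a1 and Col18a1 belong to the basement membrane collagens with fragments that act on blood vessels. Col15a1 gave 5.78, 5.70 and 5.69 in Neo/Wt nasal and 6.12, 6.06 and 6.03 in Neo/Wt maxillary tissue. These values did not overlap, and the difference was -0.34 ± 0.06 (adjusted p 0.00602), with -0.32 ± 0.06 in Neo/Null (adjusted p 0.00741). Col18a1 differed by -0.33 and -0.32 on its 2 probe sets in Neo/Wt (adjusted p 0.0424 and 0.0309) and by -0.12 and -0.10 in Neo/Null (adjusted p 0.487 and 0.485). Both Neo/Wt calls of Col18a1 were lost without Neo/Wt maxillary replicate 1 or 2 or nasal replicate 1 or 3 (adjusted p 0.0589 to 0.131), and that of the brighter probe set also without Neo/Wt maxillary replicate 3 (0.0798) and without 3 Neo/Null arrays (0.0514 to 0.0589). All 7 endothelial markers were measured, 0 were higher in nasal and 4 higher in maxillary tissue in each genotype, beside 4.53% of all genes higher in maxillary tissue in Neo/Wt and 4.31% in Neo/Null, and their mean log2 signal ran from 6.68 to 6.93 on nasal and from 7.08 to 7.29 on maxillary arrays. Their part in the collagen differences was not tested.

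Of the collagens left, Col8a2, a short chain of the corneal basement membrane, differed by 0.56 ± 0.21 in Neo/Wt (adjusted p 0.135) and 0.79 ± 0.21 in Neo/Null (1.73-fold, adjusted p 0.0327). The Neo/Null call of Col8a2 was lost without any of the 3 Neo/Null maxillary replicates or Neo/Null nasal replicate 1 or 2 (adjusted p 0.0690 to 0.109), and with pools paired the Neo/Wt comparison passed (0.0342). Col7a1, of the anchoring fibrils under the skin, differed by 0.18 and -0.038, and the 2 probe sets of Col26a1 by -0.34 and -0.28 in Neo/Wt and by -0.32 and -0.0010 in Neo/Null, with no call. Other cell types were measured beside these collagens. Of 4 mesenchymal genes Prrx1 and Twist1 were higher in maxillary tissue of Neo/Wt embryos, by 1.56 and 0.39 on the log2 scale. There Msx1 differed by 0.30 (adjusted p 0.452) and Pdgfra by -0.028 (adjusted p 0.932), nasal minus maxillary, without a call. In Neo/Null 1 of the 4 passed, as higher in maxillary tissue. All 3 tested neuroepithelial genes were higher in nasal tissue in both genotypes. Of 4 macrophage genes 1 was higher in maxillary tissue in Neo/Wt and 2 in Neo/Null. Of 7 surface ectoderm genes Epcam was higher in nasal tissue, by 1.88-fold and 1.74-fold, and Krt14 (2.26-fold and 2.40-fold) and Trp63 (1.58-fold and 1.73-fold) higher in maxillary tissue, Neo/Wt before Neo/Null. Of 2 tested glial crest genes Sox10 was higher in maxillary tissue, by 2.26-fold and 2.52-fold, and Erbb3 differed by 0.30 on the log2 scale in Neo/Wt (adjusted p 0.0320) and by 0.22 in Neo/Null (adjusted p 0.0956). Of 3 tested osteoblast genes Ibsp was higher in maxillary tissue in both genotypes, and Alpl was higher in nasal tissue in Neo/Null. The part of these cells in the collagen differences was not tested.

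The machinery that modifies and folds collagen chains was measured by 16 tested genes. In Neo/Wt 5 of them were higher in maxillary tissue, beside 4.53% of all genes, and 0 in nasal tissue. These were P3h3 (1.51-fold) and P3h4 (1.30-fold), of the prolyl 3-hydroxylase family, Plod1 (1.38-fold), a lysyl hydroxylase, Serpinh1 (1.21-fold), the collagen chaperone Hsp47, and Crtap (1.24-fold), a partner of the prolyl 3-hydroxylases. In Neo/Null 1 of the 16 passed, Serpinh1, at 1.20-fold higher in maxillary tissue, beside 4.31% of all genes. Of 7 maturation enzymes Adamts3, which trims the ends of procollagen, was higher in nasal tissue in both genotypes, by 1.72-fold and 1.84-fold. Of 5 tested collagenases and inhibitors, Mmp2 and Timp1 were higher in maxillary tissue in both genotypes, Timp1 by 1.79-fold in Neo/Wt. Mmp14 was higher in nasal tissue in Neo/Null and differed by 0.15 on the log2 scale in Neo/Wt (adjusted p 0.282). Of 7 tested receptors Mrc2, which takes up collagen, was higher in maxillary tissue in Neo/Wt, at 1.31-fold, and Itga1, of a collagen-binding integrin, higher in nasal tissue in Neo/Null, at 1.52-fold.

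Between genotypes no collagen probe set passed the threshold. Collagen chains in Neo/Null tissue lay within 0.42 log2 units of Neo/Wt in either prominence, and the differences lay between -0.22 and 0.38 for nasal tissue and between -0.42 and 0.26 for maxillary tissue. In nasal tissue 0 of 43 passed the adjusted test of limma, where 2 of all probe sets, or 0.00821%, did. At an unadjusted p under 0.05, 3 were higher in Neo/Null, beside 3.57% of all probe sets, and 1 was lower, beside 1.17%. In maxillary tissue 0 of 43 passed, and 0% of all. At an unadjusted p under 0.05, 0 were higher, beside 3.7% of all, and 1 was lower, beside 2.3%. Nasal tissue had a median difference of 0.025 and maxillary tissue one of -0.059, against 0.023 and -0.0040 over all probe sets. The 95% confidence intervals reached 0.23 log2 units to either side at the median probe set and 0.46 at the widest.

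The 5 collagen genes with the smallest p in nasal tissue were Col2a1, Col25a1, Col4a6, Col18a1 and Col4a1. Col2a1 gave 10.32, 10.34 and 10.24 in Neo/Null and 10.01, 10.19 and 9.99 in Neo/Wt nasal tissue. The groups did not overlap, and the difference was 0.23 (95% confidence interval 0.059 to 0.40). Col25a1, with the arrays given above, differed by 0.28 (0.066 to 0.49), and the groups overlapped at Neo/Null replicate 3. Col4a6 gave 5.40, 5.38 and 5.66 in Neo/Null against 5.87, 5.71 and 5.54 in Neo/Wt, with overlap and a difference of -0.22 (-0.44 to -0.0094). This Col4a6 probe set was called present only in Neo/Null maxillary tissue, and so in neither nasal group compared here. A Col18a1 probe set with possible matches to other transcripts differed by 0.18 (0.0058 to 0.35), and Col4a1 by 0.17 (-0.00095 to 0.34). The adjusted p of each was 0.9995. The brighter Col18a1 probe set, whose p was larger, had mean log2 signals of 10.01 in Neo/Null and 9.88 in Neo/Wt nasal tissue.

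In maxillary tissue the genes with the smallest p were Col23a1, Col16a1, Col2a1, Col8a2 and Col4a2. The brightest Col23a1 probe set was lower in all 3 Neo/Null pools than in any Neo/Wt pool, by values given above, with a difference of -0.21 (-0.35 to -0.072) and an adjusted p of 0.780. Its other probe sets differed by -0.13 and -0.17. Col16a1 gave 5.96, 5.91 and 5.92 in Neo/Null against 6.20, 6.25 and 5.99 in Neo/Wt, a difference of -0.22 (-0.45 to 0.0087). It was called present in neither maxillary group. Col2a1 differed by -0.17 (-0.34 to 0.0073). Col8a2 gave 3.96, 4.02 and 3.83 against 4.44, 4.43 and 4.18, with a difference of -0.42 (-0.87 to 0.040). Col4a2 gave 8.95, 8.94 and 8.82 against 8.97, 9.24 and 9.00, with a difference of -0.16 (-0.36 to 0.031). Adjusted p-values of these 5 lay between 0.780 and 0.872. In 5 of the 43 probe sets every Neo/Null maxillary array lay below every Neo/Wt one, or 11.6% beside 5.15% of all probe sets, and in 0 above, beside 6.27%. In nasal tissue 1 lay below, or 2.33% beside 2.4%, and 3 above, or 6.98% beside 6.17%.

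**Figure D4:**
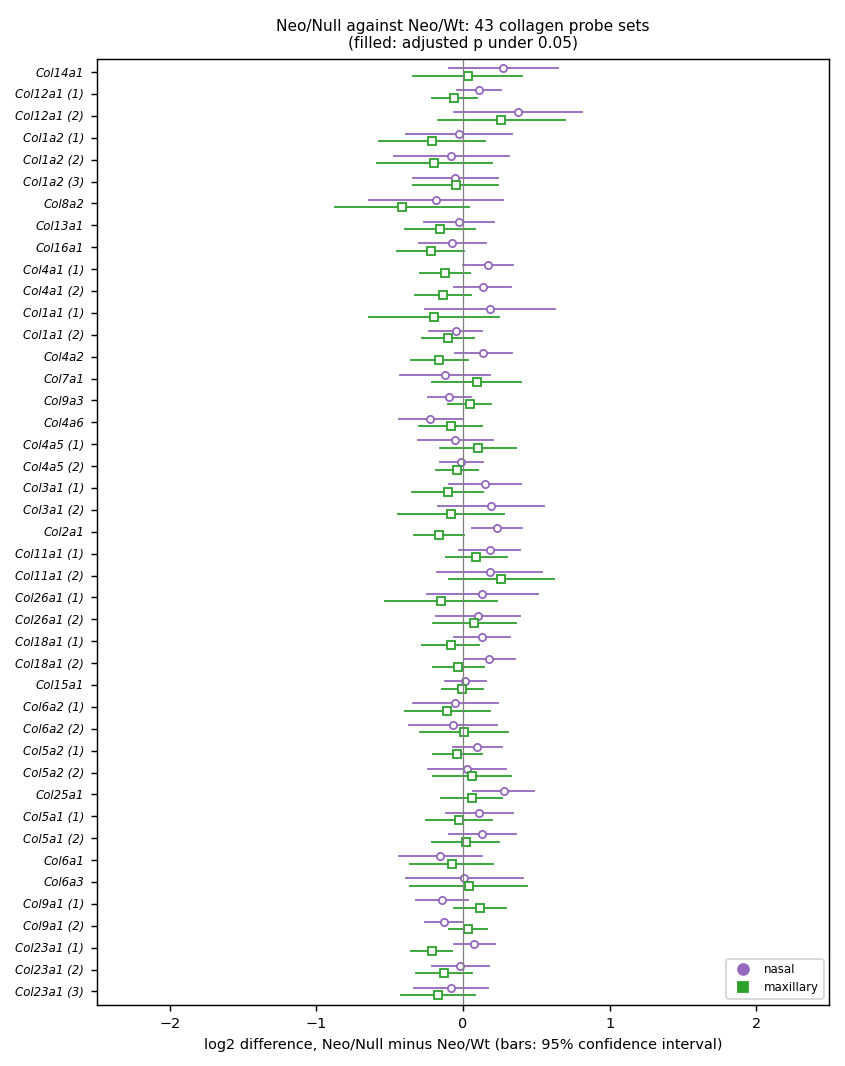
Log2 difference, Neo/Null minus Neo/Wt (horizontal axis), for the 43 tested collagen probe sets in nasal (purple circles) and maxillary tissue (green squares), with 95% confidence intervals and the probe sets in the order used for the prominences. No symbol is filled, since 0 passed the adjusted threshold, and all differences lie between -0.42 and 0.38.

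The genotype difference was also compared between the prominences. The nasal minus the maxillary genotype difference was 0.40 for Col2a1 (95% confidence interval 0.15 to 0.64), 0.29 for Col23a1 and 0.29 for Col4a1, the 3 genes with the smallest p. Here 0 of 43 collagen probe sets and 0% of all passed the adjusted test. At an unadjusted p under 0.05, 4 were positive, beside 3.38% of all probe sets, and 1 was negative, beside 1.43%. The positive ones belonged to Col2a1, Col23a1, Col4a1 and Col4a2 and the negative one to Col9a1, with adjusted p-values of at least 0.984. This contrast uses all 12 arrays and therefore shares them with every comparison above. In the lists of processing and maturation enzymes, receptors, fibril-binding proteins, basement membrane partners, collagenases and chondrogenic factors, 0 genes passed between genotypes in either prominence.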

How the data were processed

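RNA of pooled E10.5 nasal and maxillary prominences was measured on 12 Affymetrix mouse arrays. The authors deposited a log2 signal for each probe set. Their methods name the GeneChip Operating Software with a scaling factor per array and their file header names MAS5.0. Neither mentions a log, so how probes were summarised is not settled. The deposited detection score, 1 value per group, was used as the authors' present call, and the rule that combined the arrays is not given in the sources used here. The 12 columns that repeat the log2 values beside these calls were not used. Controls (64 probe sets) were left out, and 34945 probe sets had 1 gene symbol, 932 several and 9160 none.

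Groups came from the labels. Models with 1 mean per group were fitted to the 12 arrays in limma 3.58.1 (R 4.3.3, lmFit and eBayes, 8 residual and 3.39 prior degrees of freedom), on probe sets called present in at least 1 group. P-values carried a Benjamini-Hochberg adjustment over all 24346 of them. The methods name no test for the arrays. The script was tested on simulated data. The number of pools limits the precision, and the depth of an array has no count behind it.

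Members and lists were chosen with earlier results of these data known. Values by array were given for the 8 genes with the smallest p between prominences in Neo/Wt, each through its brightest tested probe set. For the genotypes, the 5 genes with the smallest p in each comparison and the 3 smallest for their difference were named. Each of these was given through its probe set with the smallest p. Values were also given for the partner chain Col1a1 and the related Col15a1, which were chosen after their values were seen. Of other lists up to 4 genes with the smallest p were named, and Crtap was added after its value was seen.

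Same-numbered arrays were compared through the correlation of their deviations from the group means. Same-numbered nasal and maxillary pools correlated at 0.19 to 0.27 in Neo/Wt and 0.16 to 0.23 in Neo/Null, and all 6 arrays of each genotype correlated best with their own number. Same-numbered maxillary pools of the 2 genotypes correlated at 0.15 to 0.47, and those with other numbers at -0.34 to 0.25. Only 3 of these 6 arrays correlated best with their own number. Nasal pools of the 2 genotypes correlated at -0.18 to 0.17 with the same number and at -0.26 to 0.17 with other numbers. The numbers were therefore taken to pair the prominences of a genotype, while a pairing of the genotypes was not shown. Fits with the replicate block, within and between genotypes, were alternatives. Other alternatives were the filter, the scaling, an offset of 32, the estimate of spread, array weights, the arrays in the fit and leaving out each array. Figures were drawn with matplotlib 3.10.9.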

Additional observations from a re-analysis of the deposited data

How the results depend on the processing

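The count of collagen probe sets that passed between prominences was 20 in Neo/Wt, with 14 to 23 under the other filters, scalings, offset, estimates of spread and sets of arrays, and 23 in Neo/Null, with 17 to 26. Leaving out 1 array gave 15 to 22 in Neo/Wt, lowest without Neo/Wt maxillary replicate 2, and 18 to 24 in Neo/Null, lowest without Neo/Null maxillary replicate 1. With the replicate block the counts were 22 and 24, with the block within genotype 22 and 22, and with the block between genotypes, also on the 6 arrays of a prominence alone (added after seeing the data), 0. The block within genotype removed the Neo/Null calls of Col25a1 and Col5a2 and added Col13a1 and Col8a2 in Neo/Wt and Col6a2 in Neo/Null, and with it no other collagen call changed. Of the calls, 15 of 20 in Neo/Wt and 16 of 23 in Neo/Null passed under every alternative run that held the probe set (probe sets not called present in a group compared were left out under the strictest filter), and the rest are named in the text except Col13a1 in Neo/Null, which missed with only the compared groups in the fit (adjusted p 0.0530). Between genotypes, and for the difference between prominences, 0 passed under every alternative run. Of 656 repeats for single genes named by rule, 648 stayed on their side of the threshold, 8, all for Col25a1 in Neo/Null, no longer passed, and 0 reversed. These genes were picked for the smallest p between prominences, or came from genotype comparisons with adjusted p-values of at least 0.780 in limma, far from the threshold. The count of 648 therefore says little about the less firm calls, such as Col18a1 and Col6a2 in Neo/Wt. With a gene represented by the mean of its probe sets, the fibril-binding list in Neo/Wt had 4 calls rather than 2 and the chondrogenic factors in Neo/Null 2 rather than 1. The causes were not tested. Dim probe sets near 3 to 4 log2 units, such as Col14a1 in maxillary tissue and Col9a3, are limited by background, and arrays give no counting error.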

Other observations

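Replicate 3 carried the lowest collagen signal in many probe sets of every group. It was the lowest of the 3 arrays in 27 of 43 collagen probe sets in Neo/Null nasal, 24 in Neo/Null maxillary, 25 in Neo/Wt nasal and 25 in Neo/Wt maxillary tissue. Over all probe sets tested, replicate 3 was lowest in 45.6%, 27.4%, 26.8% and 38.2% in the same order. Col1a1 in maxillary tissue is an example, with replicate 3 at 5.80 in Neo/Null and 5.77 in Neo/Wt and the other arrays between 6.07 and 6.64. The labels give no batch for the numbers, and the cause was not tested.

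A second Col14a1 probe set (1428455_at), which no group had called present and which was picked after its values were seen, gave 3.55 to 4.05 on the 6 nasal and 3.20 to 3.40 on the 6 maxillary arrays. The 2 sets of arrays did not overlap. Another probe set of Col14a1 gave 3.14 to 3.71 over all arrays. Col27a1, a fibrillar chain counted among the genes not called present, had a probe set (1453191_at) at 6.83 to 7.22.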
